A study of Branchiostoma lanceolatum with 8 samples.

Results

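Among the genes measured in amphioxus ectodermal explants, 64 carried symbols of nucleolar ribosome assembly factors or of subunits of the RNA polymerases, out of 18998 genes in either table. They were picked by symbol: every row whose name begins with NOP, UTP, RRP, TSR or NOL and a digit, NOC2L to NOC4L, POLR1, POLR2 or POLR3, IMP3 or IMP4, or is one of a fixed set of further nucleolar names such as FBL, NCL, NHP2, PES1, WDR12, BMS1, GNL2, EBNA1BP2 and MPHOSPH10. This set of symbols was chosen with earlier results of these data known. Each of the 64 symbols had 1 row. All 64 were in the table for 19 hours post fertilization (hpf) and 61 in that for 11 hpf, where TSR2 and NOL4 were among those not analysed. No row used here carried BOP1, DKC1, GAR1, NOLC1, NOP10 or GNL3, other known members of these complexes.

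Explants of the outer embryonic layer of Branchiostoma lanceolatum, an invertebrate chordate, were either left as controls or treated with human recombinant Activin at 50 ng/mL, and collected at 11 or at 19 hpf. Activin is a ligand of the TGF-beta family that signals through the receptors also used by Nodal. The 4 groups held 2 libraries each, and each library mixed explants from different fertilizations, so that a replicate is a pool and not an animal. Rows of the epidermal markers (KRT8, TFAP2D, GATA2 and DLX1), 4 at 11 hpf and 5 at 19 hpf, were all lower with Activin by the reading of sign given below. Markers of the labelled tissue were thus detected in the controls of both times, though values of single markers are not given here. Values per library were not used here: the authors deposited 1 table of comparisons per time, with a mean normalized count over the 4 libraries of that time, a log2 fold change, its standard error and an adjusted p. Group means for each treatment were derived here from that mean and that fold change, so the spread of single libraries is seen only through the standard error, and whether libraries of the groups overlap cannot be shown. The values after ± are that standard error. A call is a Benjamini-Hochberg adjusted p below 0.05 over all rows of a table, two-sided, and "rose" or "fell" is used only of called genes. The headers do not name the numerator. Positive values were taken to mean more RNA with Activin, since 3 genes that Nodal signals are known to induce in vertebrates had positive values at 11 and 19 hpf, LEFTY2 (6.39 ± 0.53 and 6.92 ± 0.43), CHRD (4.59 ± 0.43 and 4.75 ± 0.37) and GSC (2.77 ± 0.58 and 3.88 ± 0.52), in the authors' deposited table. In bulk RNA, more cells of a type and more RNA per cell cannot be told apart.

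Ribosomes are built in the nucleolus. RNA polymerase I transcribes the long precursor of the ribosomal RNAs, RNA polymerase III the 5S ribosomal RNA and the transfer RNAs, and RNA polymerase II the messenger RNAs, including those of ribosomal proteins. The precursor is methylated and pseudouridylated by small nucleolar ribonucleoproteins (snoRNPs), cut and folded within the small subunit processome, and passed through separate assembly lines for the 40S and the 60S subunit. In vertebrates and yeast these genes are known to be expressed together in growing and dividing cells.

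At 19 hpf nearly the whole set was higher in Activin explants: 51 of 64 genes rose, 1 fell and 12 were not called, while 18.7% of all rows were called higher and 27.7% lower. The median log2 fold change of the 64 was 2.59, beside 0.07 for all 16733 rows, and 62 of the 64 values were positive, beside 51.2% of all rows. At least 4-fold rises made up 44 of the 51 calls as deposited. The share of all rows with such rises is not given here, and the folds depend on the scaling described below. With the median of ribosomal protein genes set to 0, the median of the 64 was 1.57. At 11 hpf the effect was smaller: 14 of 61 genes rose, 1 fell and 46 were not called, while 12% of all rows were called higher and 24.6% lower. The median was then 0.80, beside 0.07 for all 15793 rows, with 52 of 61 values positive. The share of members that rose at 11 hpf was thus nearer to that of all rows than at 19 hpf.

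The Activin effect was larger at 19 than at 11 hpf for 52 of the 61 genes in both tables, beside 54.5% of the 13528 genes tested, and 21 of the 61 passed a Wald test of the difference between times, while 10.1% of all genes tested passed in that direction. No member passed in the other direction, where 6.7% of all genes tested did. At an unadjusted p below 0.05 the counts of members were 30 and 0, beside 2237 and 1647 of all 13528 genes tested. The median difference was 1.86 in log2, beside 0.17 for all genes. The times share no library. Across the 61 genes, which are not independent replicates and share the libraries of each time, the log2 fold changes of both times had a Pearson r of 0.33 and a Spearman rho of 0.32, beside 0.69 and 0.63 across all 13528 genes.

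**Figure D1:**
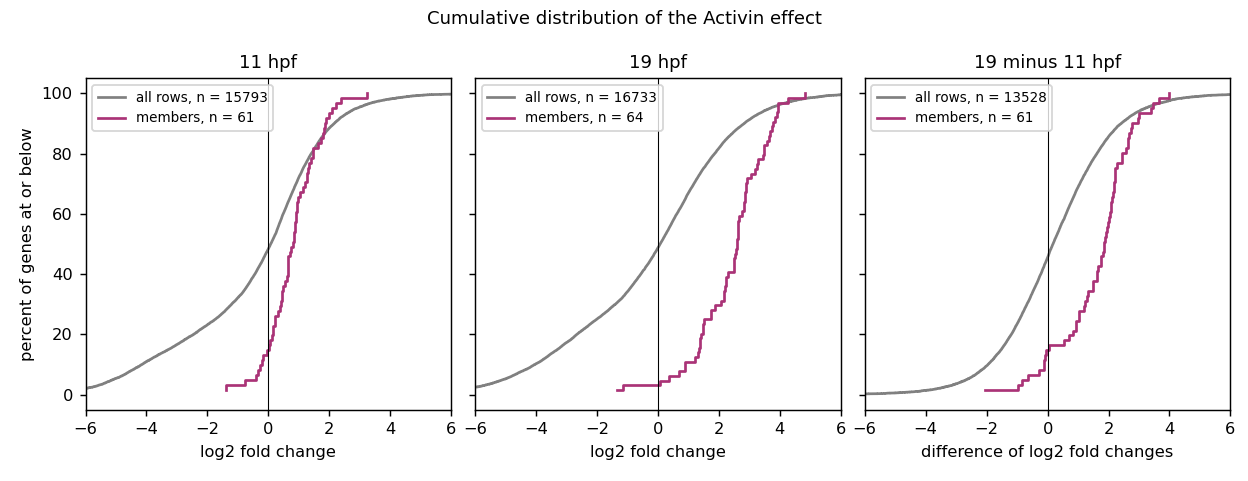
Cumulative percent of genes (vertical axis) against the log2 fold change of Activin over control at 11 and 19 hpf and against the difference of both (horizontal axes), for the members and for all rows tested. The curve of the members lies to the right of that of all rows over most of its range in each panel, with medians of 0.80 at 11 hpf, 2.59 at 19 hpf and 1.86 for the difference.

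The size of these counts depends on how the treatments are scaled against each other. When the median of 59 cytosolic ribosomal protein genes was set to 0, which takes 0.34 off every log2 fold change at 11 hpf and 1.02 at 19 hpf, 41 members rose and 3 fell at 19 hpf, with 7.73% of all rows called higher and 42.9% lower. At 11 hpf 7 rose and 2 fell on that scale, with 8.24% of rows higher and 29% lower. The other 3 scalings tried shift all values upwards. At 19 hpf 56 members rose with the median of rows with a mean of at least 100 set to 0, 58 with upper quartiles made equal and 60 with totals made equal, while 22.8%, 27.5% and 33.8% of all rows were called higher. At 11 hpf 20, 26 and 39 members rose in that order, while 14.9%, 19.2% and 30.5% of all rows did. For the difference between times, ribosomal protein centring left 11 members with a larger effect at 19 hpf and 2 with a smaller one, beside 5.08% and 15.2% of all genes tested. The median of the set was positive at both times under all 4 scalings. The calls lost on ribosomal protein centring were those of POLR2A, POLR2J, MPHOSPH10, NOP14, GNL2, RRP1B and NCL at 11 hpf, and of POLR1C, POLR2B, POLR2D, POLR2E, POLR2L, TSR2, RRP7A, RRP9, RRP8 and NOL9 at 19 hpf.

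**Figure D2:**
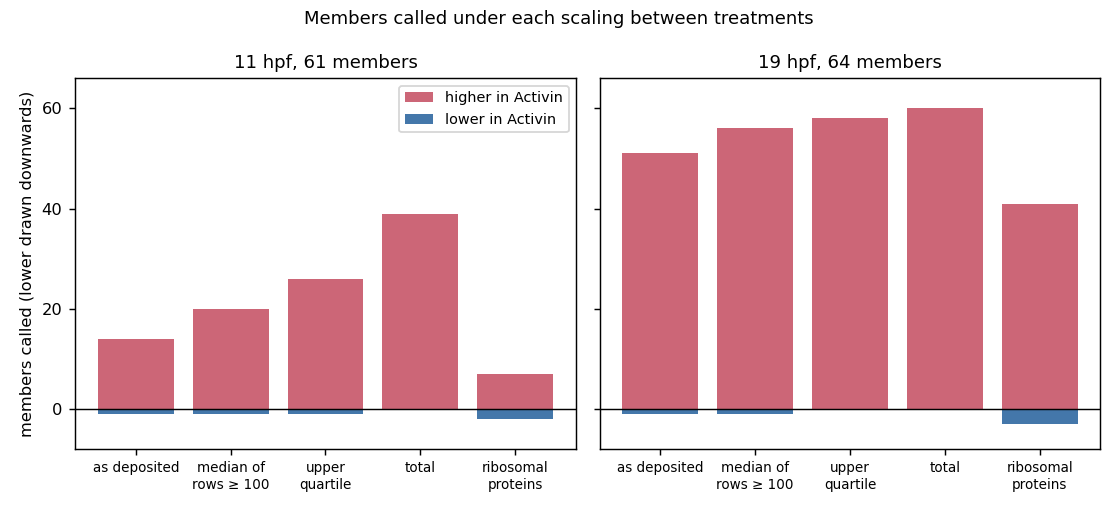
Number of members called higher (upward bars) or lower (downward bars) in Activin explants at 11 and 19 hpf, as deposited and under 4 other scalings between treatments. At 19 hpf the count of higher genes lies between 41 and 60, and at 11 hpf between 7 and 39.

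RNA polymerase I was represented by 5 subunits, of which 4 rose at 19 hpf and 1 at 11 hpf, beside 18.7% and 12% of all rows. POLR1A, the largest and catalytic subunit, had rebuilt means of 190.3 in control and 481 in Activin explants at 11 hpf and of 79.3 in control and 714 in Activin explants at 19 hpf, in normalized counts. It rose at both times, by 1.34 ± 0.42 at 11 hpf and by 3.17 ± 0.41 (9-fold) at 19 hpf in the authors' deposited table, and the difference between times of 1.83 ± 0.58 passed the Wald test with a Benjamini-Hochberg adjusted p of 0.015. POLR1B, the second largest subunit, which completes the active site, went from 18.7 to 284 normalized counts between control and Activin explants at 19 hpf, a rise of 3.93 ± 0.57 (15.2-fold) in the authors' deposited table. Its value at 11 hpf, 1.88 ± 0.83, was not called as deposited, but was under the 3 scalings that shift values upwards. POLR1E, a polymerase I subunit of the initiation and elongation module, rose by 2.50 ± 0.57 at 19 hpf and POLR1C, which polymerase I shares with polymerase III, by 2.62 ± 0.84 in the authors' deposited table. POLR1D, the partner of POLR1C, was barely detected, with control means under the floor of 3 normalized counts at both times, so no fold is given for it and it was not called. On ribosomal protein centring 3 of the 5 rose at 19 hpf, since POLR1C was no longer called.

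Of 11 subunits of RNA polymerase II, 8 rose and 3 were not called at 19 hpf, while 4 rose and 1 fell at 11 hpf. Among all rows 18.7% were called higher at 19 hpf, and 12% higher and 24.6% lower at 11 hpf. The largest polymerase II subunit POLR2A, which carries the C-terminal repeat domain, had rebuilt means of 2167 in control and 4045 in Activin explants at 11 hpf and of 3069 in control and 3208 in Activin explants at 19 hpf, in normalized counts. It rose by 0.90 ± 0.34 at 11 hpf in the authors' deposited table, while its value at 19 hpf was 0.06 ± 0.32, with a 95% interval of -0.56 to 0.69, and not called. Means in both treatments were thus nearly equal at 19 hpf, a reading that depends on the scaling. On ribosomal protein centring POLR2A was called lower, at -0.96, and with totals made equal it was called higher, at 0.92. POLR2B, the second largest subunit, rose at both times, by 1.46 ± 0.34 and 1.39 ± 0.31 in the authors' deposited table, though its 19 hpf call was lost on ribosomal protein centring (0.37).

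The subunit that went the other way at 11 hpf was POLR2I, a zinc-binding subunit known for transcript cleavage and fidelity. Its rebuilt means were 1558 in control and 589 in Activin explants at 11 hpf, a fall of 1.40 ± 0.36 in log2 (2.64-fold lower) in the authors' deposited table, with a Benjamini-Hochberg adjusted p of 0.00052. At 19 hpf they were 578 in control and 742 in Activin explants, at 0.36 ± 0.36 and not called, and the difference between times, 1.76 ± 0.51, passed the Wald test. The fall at 11 hpf was no longer called with totals made equal (-0.43), and the difference between times was not called on ribosomal protein centring (1.08). With upper quartiles (0.90) or totals (1.22) made equal POLR2I was called higher at 19 hpf. POLR2G, which with POLR2D forms the detachable stalk, had nearly equal means of 455 in control and 466 in Activin explants at 11 hpf. At 19 hpf it went from 94.4 to 568, a rise of 2.59 ± 0.43 (6.02-fold) in the authors' deposited table, and its difference between times of 2.56 ± 0.58 passed too. POLR2D rose less at 19 hpf, by 1.39 ± 0.41, and POLR2J, of the assembly core, rose at both times, by 1.20 ± 0.44 and 2.23 ± 0.42, in the authors' deposited table. POLR2C, the core partner of POLR2J, was at 0.65 ± 0.40 and 0.70 ± 0.42, not called. Under the 3 scalings that shift values upwards POLR2C was called higher at 19 hpf.

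Subunits that all 3 polymerases use are counted here under their POLR2 names: POLR2E, POLR2F, POLR2H and POLR2L. All 4 rose at 19 hpf, with a median of 1.97 in log2, and 1 of them, POLR2E, rose at 11 hpf. Among all rows 18.7% were called higher at 19 hpf and 12% at 11 hpf. POLR2H, the subunit with the largest change in the polymerase II group, went from 22.3 to 185 normalized counts at 19 hpf, a rise of 3.05 ± 0.63 (8.29-fold) in the authors' deposited table. POLR2E rose by 1.86 ± 0.45 at 11 hpf and 1.75 ± 0.51 at 19 hpf, POLR2F by 2.18 ± 0.48 and POLR2L by 1.23 ± 0.39 at 19 hpf in the authors' deposited table. POLR2F, near equality at 11 hpf (0.04 ± 0.48), differed between times by 2.14 ± 0.68, which passed the Wald test. On ribosomal protein centring POLR2E and POLR2L were no longer called at 19 hpf.

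RNA polymerase III also uses POLR1C with its partner POLR1D, and POLR2E, POLR2F, POLR2H and POLR2L. All of these except POLR1D, barely detected and not called, rose at 19 hpf, and POLR2E at 11 hpf too. On ribosomal protein centring POLR1C, POLR2E and POLR2L were no longer called at 19 hpf. Subunits named POLR3 gave no call at either time by the authors' adjusted p, for 6 subunits at 11 hpf and 7 at 19 hpf. Among all rows 12% were called higher at 11 hpf and 18.7% at 19 hpf. At an unadjusted p below 0.05, POLR3A and POLR3D were higher and POLR3K lower at 19 hpf, and none passed at 11 hpf. By that threshold 3674 of all 16733 rows were higher and 5105 lower at 19 hpf, and 2455 and 4442 of 15793 at 11 hpf. For the 6 subunits in both tables the rebuilt means lay between 18.8 and 245 normalized counts at 19 hpf, and with their standard errors of 0.50 to 0.92 a log2 change of 1.12 to 2.1 would have been needed for a call. The median of all 7 at 19 hpf, 1.47, lay near the 1.39 of the polymerase II group, and 6 of the 7 values were positive. POLR3A, the largest subunit, stood at 1.47 ± 0.74 with a 95% interval of 0.03 to 2.92, and POLR3B, the second largest, at 1.50 ± 0.92 with an interval of -0.31 to 3.31 in the authors' deposited table. These intervals hold values as large as those of many called members.

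Further polymerase III values at 19 hpf in the authors' deposited table were 1.88 ± 0.86 for POLR3D and 1.49 ± 0.87 for POLR3F, both of the subcomplexes used in initiation, and 0.87 ± 0.50 for POLR3E, the partner of POLR3D. The exception in sign was POLR3K, a small subunit known for RNA cleavage and termination, with rebuilt means of 126 in control and 49.9 in Activin explants and a value of -1.33 ± 0.65, Benjamini-Hochberg adjusted p = 0.077. The absence of calls among subunits named POLR3 depends on the scaling. Under the 3 scalings that shift values upwards, 3 to 5 of them were called higher at 19 hpf, where 22.8% to 33.8% of all rows were. POLR3K was called lower on ribosomal protein centring.

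**Figure D3:**
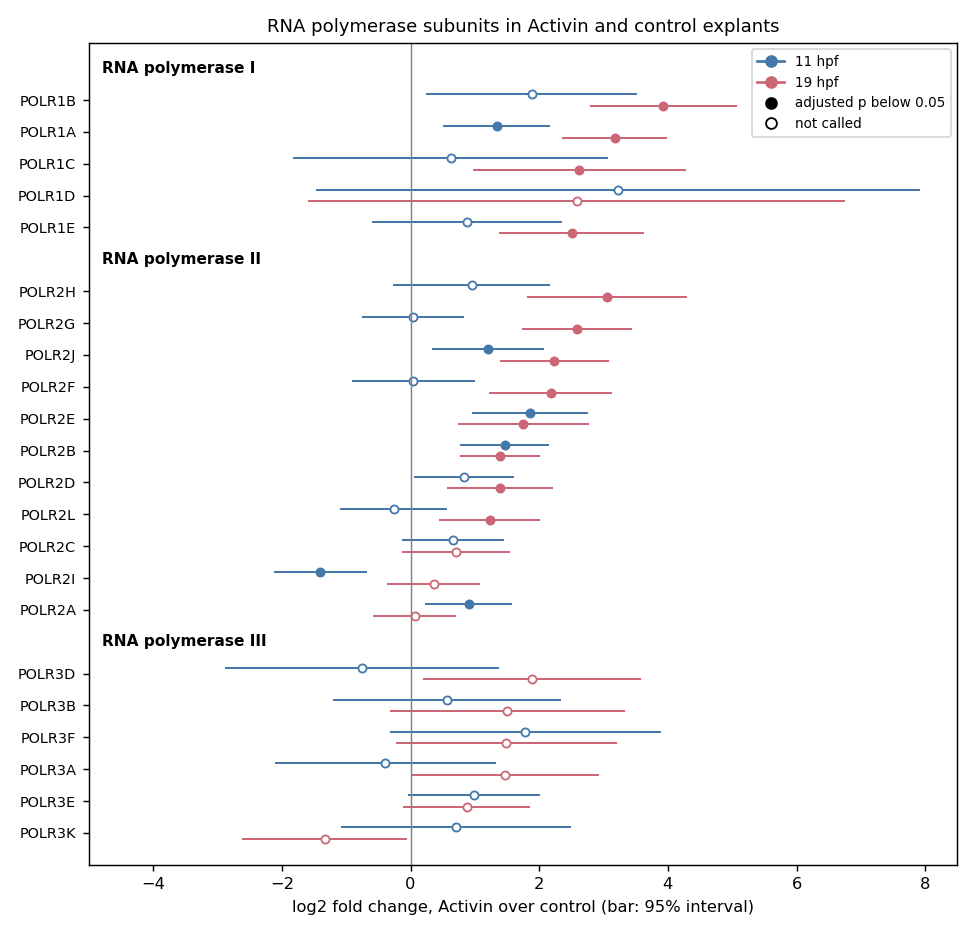
Log2 fold change of Activin over control (horizontal axis) with its 95% interval for each RNA polymerase subunit in both tables at 11 hpf (blue) and 19 hpf (red), with filled points for an adjusted p below 0.05. At 19 hpf 12 of these 22 subunits are filled, all to the right of 0, and POLR3K is the subunit whose point lies to the left.

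All 4 measured proteins of the box C/D particle, which methylates ribosomal RNA, rose at 19 hpf, and 0 of 4 passed at 11 hpf, also at an unadjusted p below 0.05. Among all rows 18.7% were called higher at 19 hpf and 12% at 11 hpf. At 11 hpf 2455 of all 15793 rows were higher and 4442 lower at that unadjusted p. FBL (BL19489), fibrillarin, the methyltransferase, had rebuilt means of 2419 in control and 2840.4 in Activin explants at 11 hpf and of 762 in control and 5665 in Activin explants at 19 hpf. In the authors' deposited table these were 0.23 ± 0.34 and 2.89 ± 0.34 (7.44-fold higher), and the difference of 2.66 ± 0.48 passed the Wald test with a Benjamini-Hochberg adjusted p of 1.9e-06. The scaffold proteins NOP56 and NOP58 rose by 2.08 ± 0.32 (4.23-fold) and 2.64 ± 0.36 (6.22-fold) at 19 hpf in the authors' deposited table.

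NHP2L1, which binds the kink-turn of box C/D RNAs and also belongs to a spliceosomal particle, stood at -0.35 ± 0.35 at 11 hpf, not called, and rose by 2.66 ± 0.38 at 19 hpf in the authors' deposited table. Its rebuilt means at 19 hpf were 146 in control and 927 in Activin explants. NHP2, the single measured protein of the box H/ACA particle, which guides pseudouridylation, went from 347 to 1959 normalized counts at 19 hpf, a rise of 2.50 ± 0.36 (5.65-fold) in the authors' deposited table. The difference between times passed the Wald test for all 5 of these proteins, from 1.85 ± 0.50 for NHP2 to 3.01 ± 0.52 for NHP2L1. On ribosomal protein centring all 5 were still called at 19 hpf, but the differences between times of NOP58 (1.30) and NHP2 (1.17) were not. At 11 hpf the box C/D median of 0.20 became -0.14 on that scale, 0.64 with upper quartiles made equal, where 1 of 4 was called higher, and 1.17 with totals made equal, where 3 of 4 were, so no direction is given for it.

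Genes of the small subunit processome and of 40S maturation rose at 19 hpf, 20 of 22, while 1 fell and 1 was not called, and 4 of 21 rose at 11 hpf. Among all rows 18.7% were called higher at 19 hpf and 12% at 11 hpf. On ribosomal protein centring 17 of 22 rose at 19 hpf and 2 of 21 at 11 hpf, beside 7.73% and 8.24% of all rows. The largest changes of the group at 19 hpf were those of UTP3, NOP14 and RRP12. UTP3, a processome component, went from 19 in control to 292 in Activin explants, 3.94 ± 0.57 (15.4-fold), and NOP14, a processome factor needed for 18S processing in yeast, from 21.7 to 325, 3.91 ± 0.57 (15-fold), in the authors' deposited table. RRP12, a factor of pre-40S export in yeast, went from 61.2 to 777, 3.67 ± 0.44 (12.7-fold). The other genes of the group that rose at 19 hpf did so by between 1.30 ± 0.36 for RRP9, a U3 particle protein, and 3.63 ± 0.48 for NOL6, among them UTP6, UTP14C, UTP15, UTP18, UTP23, NOL10, NOL11 and RRP7A of the processome and TSR2, a chaperone of a small subunit ribosomal protein.

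BMS1, a GTPase of the processome, and the U3 particle proteins IMP4 and MPHOSPH10 rose at both times. The authors' deposited table gave 1.73 ± 0.39 and 3.49 ± 0.40 for BMS1 at 11 and 19 hpf, 2.10 ± 0.63 and 3.29 ± 0.54 for IMP4, and 1.31 ± 0.49 and 2.81 ± 0.53 for MPHOSPH10. NOP14 was the fourth gene of the group to rise at 11 hpf, by 1.64 ± 0.65. IMP3, the partner of IMP4 and MPHOSPH10, was not called at 11 hpf and rose by 2.61 ± 0.67 at 19 hpf, and UTP20, a large scaffold protein, by 2.92 ± 0.50, in the authors' deposited table.

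The difference between times passed the Wald test for 6 genes of this group: TSR1, NOL6, UTP3, RRP12, UTP20 and BMS1. TSR1, which acts late in 40S maturation, had rebuilt means of 135 in control and 51.3 in Activin explants at 11 hpf, at -1.40 ± 0.66 and not called, and of 82.2 in control and 489 in Activin explants at 19 hpf, a rise of 2.57 ± 0.44, in the authors' deposited table. Its difference of 3.97 ± 0.79 was the largest of the 61 members. NOL6, a processome protein, stood at -0.04 ± 0.58 and rose by 3.63 ± 0.48 (12.3-fold) at 19 hpf in the authors' deposited table, a difference of 3.67 ± 0.75. On ribosomal protein centring TSR1 was called lower at 11 hpf (-1.74, Wald test, Benjamini-Hochberg adjusted p = 0.026).

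The gene that fell was UTP11L, the symbol of a U3-associated processome protein. Its rebuilt means were 1110.3 in control and 497 in Activin explants at 19 hpf, a fall of 1.16 ± 0.35 in log2 (2.23-fold lower) in the authors' deposited table, Benjamini-Hochberg adjusted p = 0.0026. At 11 hpf they were 192 in control and 168 in Activin explants, not called. UTP11L stayed negative under all 4 scalings at 19 hpf but was no longer called when upper quartiles (-0.62) or totals (-0.30) were made equal. NOC4L, a processome factor with low counts, stood at 1.40 ± 0.72 at 19 hpf and was not called.

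Genes of large subunit assembly all rose at 19 hpf, 12 of 12, and 4 of 12 rose at 11 hpf, beside 18.7% and 12% of all rows. NOL8, a nucleolar RNA-binding protein, had the largest change, from 7.19 to 137 normalized counts, 4.25 ± 0.79 (19-fold), followed by NOC3L, a factor of early 60S particles, from 22.6 to 326, 3.85 ± 0.57 (14.4-fold), in the authors' deposited table. NOP2, a methyltransferase of the 28S ribosomal RNA, went from 51.9 to 714, 3.78 ± 0.46 (13.8-fold). PES1 and WDR12 form, with BOP1, a complex that is required for processing of the large subunit RNAs in mammals. They rose at 19 hpf by 2.53 ± 0.41 (5.76-fold) and 3.46 ± 0.93 (11-fold) in the authors' deposited table, and neither was called at 11 hpf. RRP1B, NOC2L, EBNA1BP2, RRP15 and GNL2 rose by 3.73 ± 0.45, 3.59 ± 0.45, 3.45 ± 0.69, 2.75 ± 0.50 and 2.20 ± 0.51 at 19 hpf.

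At 11 hpf the genes of this group that rose were NOL8 (2.38 ± 0.76), NOC3L (2.22 ± 0.70), RRP1B (1.28 ± 0.49) and the GTPase GNL2 (1.28 ± 0.44), in the authors' deposited table. The difference between times passed the Wald test for NOP2 at 3.40 ± 0.72, RRP15 at 2.98 ± 0.74, EBNA1BP2 at 2.64 ± 0.99, NOC2L at 2.46 ± 0.72, RRP1B at 2.45 ± 0.67 and PES1 at 2.22 ± 0.66. RRP8, a base methyltransferase of the large subunit RNA, had close values at both times, 1.45 ± 0.64 at 11 hpf, not called, and 1.35 ± 0.53 at 19 hpf, called, in the authors' deposited table. Under the 3 scalings that shift values upwards RRP8 was called higher at 11 hpf too. The 19 hpf calls of RRP8 and of NOL9, a kinase of the spacer RNA (2.50 ± 0.82), were lost on ribosomal protein centring, which left 10 of 12 higher.

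NCL, nucleolin, an abundant nucleolar RNA-binding phosphoprotein, rose at both times, from 1598 to 3263 normalized counts at 11 hpf (1.03 ± 0.34) and from 2384 to 8003 at 19 hpf (1.75 ± 0.31), in the authors' deposited table. Its call at 11 hpf was lost on ribosomal protein centring. NOL4 matched the rule by its name, but no role in ribosome assembly was assigned to it here. It had the largest rise of all members at 19 hpf, 4.83 ± 1.03 in the authors' deposited table, from 3.8 to 108 normalized counts.

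**Figure D4:**
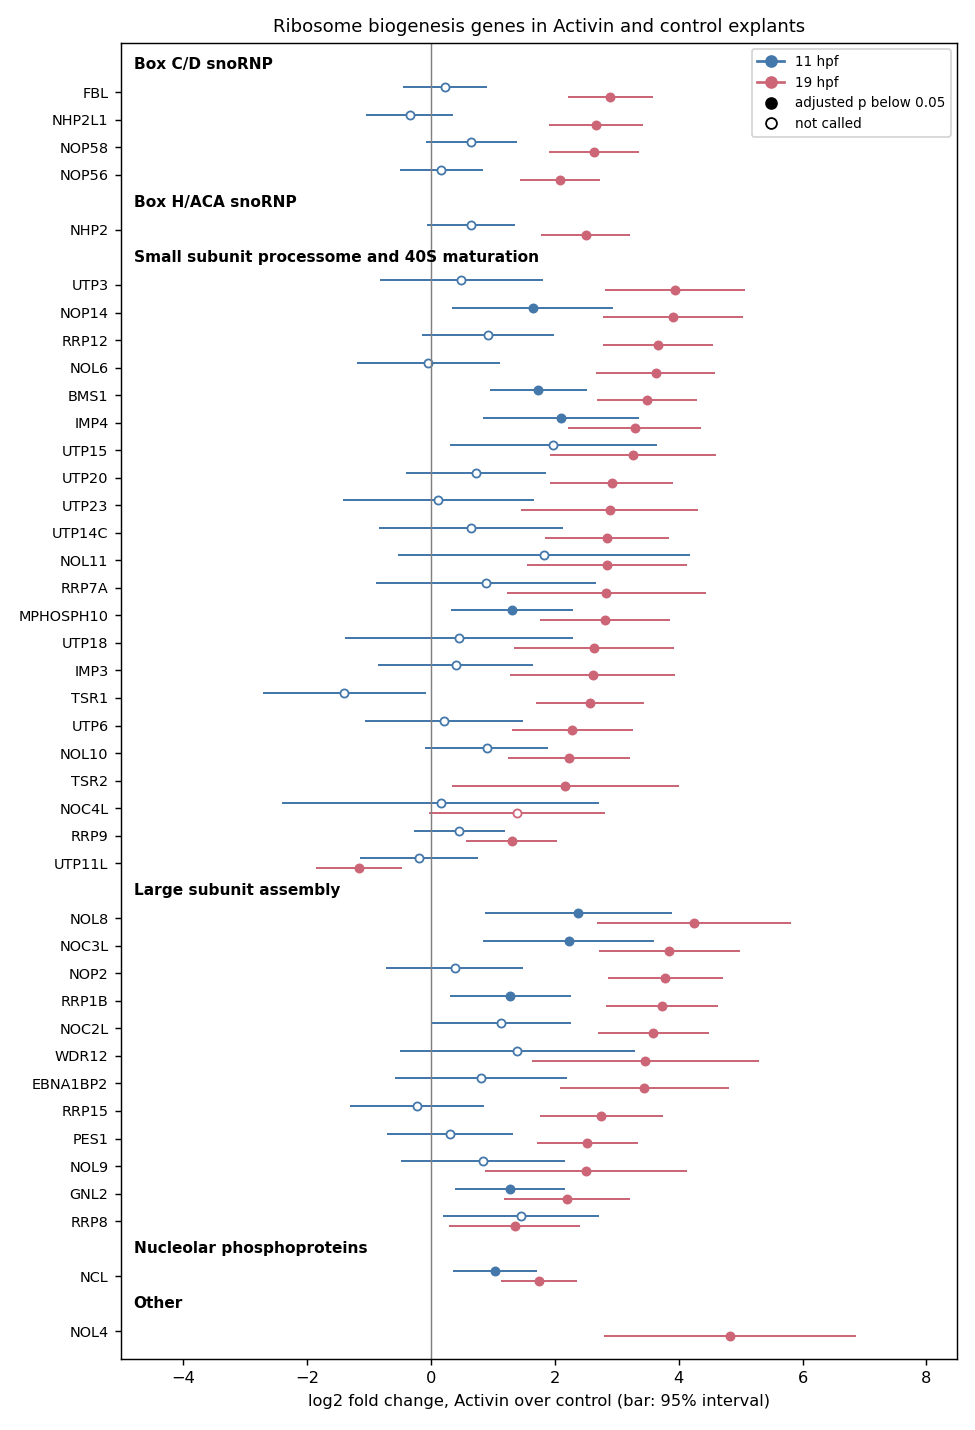
Log2 fold change of Activin over control (horizontal axis) with its 95% interval for the 41 members other than polymerase subunits at 11 hpf (blue) and 19 hpf (red), with filled points for an adjusted p below 0.05. At 19 hpf 39 genes are filled to the right of 0 and UTP11L to the left, and at 11 hpf 9 of 39 are filled, all to the right.

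The plot of rebuilt group means shows both polymerase subunits and the other members over a range of abundance. Apart from the polymerases, 39 of 41 members rose at 19 hpf, and 12 of 23 polymerase subunits did, beside 18.7% of all rows. The medians of both groups were 2.83 and 1.50. A test of the difference between these groups was not made. Precision differed with abundance: of the members with a mean of at least 100 normalized counts 38 of 43 rose at 19 hpf, beside 25.2% of all such rows, and of those under 100 it was 13 of 21, beside 12.3%. At 11 hpf the counts were 10 of 30, beside 20.2%, and 4 of 31, beside 5.83%.

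**Figure D5:**
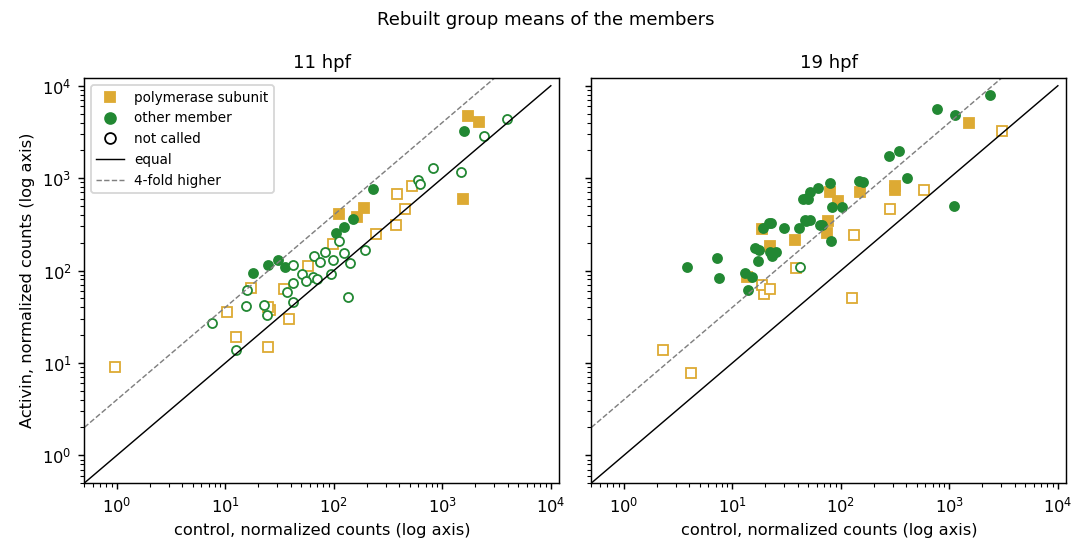
Rebuilt mean normalized counts of each member in Activin explants (vertical axis) against control explants (horizontal axis) at 11 and 19 hpf, both axes logarithmic, with lines of equality and of a 4-fold higher level. Filled points mark an adjusted p below 0.05, and 44 of them lie above the 4-fold line at 19 hpf and 3 at 11 hpf.

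Other genes of ribosome biogenesis, from a list of 111 symbols that are no members, had these counts: 84 of 109 rows with 93 symbols rose at 19 hpf and 24 of 102 at 11 hpf, where 2 fell. Of all rows, 18.7% and 12% were called higher at 19 and 11 hpf, and 27.7% and 24.6% lower. The medians of the list were 2.51 and 1.08. None of its rows fell at 19 hpf by the authors' adjusted p or was lower at an unadjusted p below 0.05, where 5105 of all 16733 rows were. On ribosomal protein centring 3 of its rows fell and 57 rose, while 42.9% of all rows were called lower and 7.73% higher. Among called genes with rebuilt control means of at least 3 normalized counts, the largest rises at 19 hpf were those of PELP1 (BL00145), a 60S maturation factor, at 4.48 ± 1.07, of 1 of several rows named WDR3 (BL96637), a processome protein, at 4.46 ± 1.03, and of 1 of several named NAT10 (BL04864), an RNA acetyltransferase, at 4.43 ± 0.91, in the authors' deposited table. The rebuilt control means of these rows, 3.62, 3.58 and 4.79 normalized counts in that order, lay near the limit of 3. The values of the other rows named WDR3 or NAT10 are not given here. Reads shared between rows of a name could move counts among them.

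By the same rule the largest rises at 11 hpf were those of NVL, an ATPase of 60S maturation, at 4.89 ± 0.57 (29.7-fold), DDX31, a nucleolar helicase, at 3.53 ± 1.15, and PA2G4, a growth-regulated nucleolar protein, at 2.82 ± 0.64, in the authors' deposited table. The genes that fell were LTV1, a 40S maturation factor, at -1.54 ± 0.54, and MAF1, the repressor of RNA polymerase III, at -1.46 ± 0.33. The fall of LTV1 was no longer called with upper quartiles (-1.10) or totals (-0.56) made equal, nor was that of MAF1 with totals made equal (-0.48). MAF1 stood at -0.34 ± 0.31 at 19 hpf, not called there, though called lower on ribosomal protein centring (-1.36). Of the regulators of polymerase I, RRN3, its initiation factor, rose by 2.06 ± 0.50 and 2.14 ± 0.45 at 11 and 19 hpf. UBTF, which binds the ribosomal DNA, stood at -0.37 ± 0.37 and 0.38 ± 0.33, not called. With upper quartiles (0.92) or totals (1.24) made equal UBTF was called higher at 19 hpf. MYC, a transcription factor known in vertebrates to activate many of these genes, rose from 371 to 1791 normalized counts at 11 hpf (2.27 ± 0.42) and from 241 to 944 at 19 hpf (1.97 ± 0.38), in the authors' deposited table.

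Other genes moved beside the members, and their part in the result was not tested. Of all rows, 18.7% were called higher and 27.7% lower at 19 hpf, and 12% and 24.6% at 11 hpf. Of 59 cytosolic ribosomal protein genes 50 rose at 19 hpf, with a median of 1.02, and 4 rose and 1 fell at 11 hpf, with a median of 0.34. Of 10 proliferation genes 8 rose at 19 hpf and 6 at 11 hpf, with medians of 2.03 and 2.20. Markers of the epidermis fell, 4 of 4 rows at 11 hpf with log2 fold changes from -5.96 to -2.31 and 5 of 5 at 19 hpf from -5.07 to -2.52, and so did those of motile cilia, 7 of 8 and 8 of 8. Of 7 rows of neural plate markers 6 rose at each time, with medians of 2.93 and 1.38, and of mesoderm markers 3 of 5 rose at 11 hpf and 4 of 6 at 19 hpf. Endoderm markers were mixed at 11 hpf, where 1 of 3 rows rose and 1 fell, and 2 of 3 rose at 19 hpf. Of 3 rows of muscle markers 1 rose and 1 fell at 11 hpf, and 0 rose and 1 fell at 19 hpf.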

How the data were processed

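RNA was sequenced from poly(A)-selected libraries of 8 pools of explants, 2 in each of 4 groups. The submitters' processing notes list edgeR, featureCounts and HISAT2, with no versions. Column names are those that DESeq2 gives its results, per the file headers. For the tool behind the final values, the genome build, the annotation and the strand setting, no statement is given in the sources used here. Each mean is a signal of normalized counts averaged by the authors over the 4 libraries of a time, per the file headers. Fold changes and their errors were deposited on a log2 scale by the authors. The test statistic, a score deposited by the authors, equalled the log2 fold change over its error, and the deposited adjusted p-value equalled a Benjamini-Hochberg adjustment of the raw p-value, each within 1e-09 in all 15793 rows at 11 hpf and all 16733 at 19 hpf.

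No model was refitted across genes: the edgeR fit foreseen for counts could not be run without values per library, so the authors' adjusted p below 0.05 was used. Group means were rebuilt from the mean and fold change, with equal weight for both treatments, and no fold is given where the lower one is under 3 normalized counts. The difference between times was a Wald test over 13528 genes with both standard errors and Benjamini-Hochberg adjustment, computed in Python 3.11.15 with scipy 1.17.1 and tested on simulated data. For the other scalings, a constant was taken off every log2 fold change and the Wald test and adjustment were repeated. The tables were normalized separately, so levels were not compared between times. The depth of each library is unknown here, and precision was read from the standard errors, whose median over the members was 0.57 at 11 hpf and 0.51 at 19 hpf. Where nothing ties pools to separate animals, p-values measure the spread between pools.

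Members, lists and tests were chosen with earlier results of these data known. Genes named are, in each group and at each time, up to 3 called genes with the largest change, those called against their group, those called for the difference between times, and core subunits. Values of further members were added after they had been seen. RPS19BP1, which is no ribosomal protein, was left out of the list of ribosomal proteins. The values of 1 gene are not reported here, though it enters the counts. No sequence is printed and the search for promoter motifs was not run, since the reference gene table at hand has another assembly and other identifiers and was not used. Alternatives were thresholds, filters on the mean (20 and 100 normalized counts), rows per symbol and 4 scalings.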

Additional observations from a re-analysis of the deposited data

Results flagged for a closer look

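The Activin effect differed between 19 and 11 hpf by the Wald test of the difference, with Benjamini-Hochberg adjustment, for 21 members and for 1 other gene named here, all with the larger value at 19 hpf. In the box C/D particle the difference in log2 was 3.01 ± 0.52 for NHP2L1, 2.66 ± 0.48 for FBL, 1.98 ± 0.51 for NOP58 and 1.92 ± 0.46 for NOP56. In the box H/ACA particle it was 1.85 ± 0.50 for NHP2. Among genes of the small subunit processome and 40S maturation it was 3.97 ± 0.79 for TSR1, 3.67 ± 0.75 for NOL6, 3.45 ± 0.87 for UTP3, 2.74 ± 0.70 for RRP12, 2.19 ± 0.76 for UTP20 and 1.75 ± 0.56 for BMS1. Among genes of large subunit assembly it was 3.40 ± 0.72 for NOP2, 2.98 ± 0.74 for RRP15, 2.64 ± 0.99 for EBNA1BP2, 2.46 ± 0.72 for NOC2L, 2.45 ± 0.67 for RRP1B and 2.22 ± 0.66 for PES1. The polymerase subunits were at 1.83 ± 0.58 for POLR1A and 2.56 ± 0.58 for POLR2G, 2.14 ± 0.68 for POLR2F and 1.76 ± 0.51 for POLR2I. LTV1, a 40S maturation factor outside the set, was at 2.29 ± 0.68, from -1.54 ± 0.54 at 11 hpf, called, to 0.75 ± 0.42 at 19 hpf, not called, in the authors' deposited table. The difference for LTV1 was not called on ribosomal protein centring (1.61). Its value at 19 hpf was called higher under the 3 scalings that shift values upwards (1.01, 1.29 and 1.61). With ribosomal protein genes centred at both times, 11 members passed for a larger value at 19 hpf (those lost were EBNA1BP2, PES1, NOC2L, NOP58, NHP2, BMS1, UTP20, POLR1A, POLR2F and POLR2I) and 2, POLR2A (-1.52) and UTP11L (-1.65), for a smaller one.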

How the results depend on the processing

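At 19 hpf the count of members that rose was within 1.5 times of 51 under every alternative run, from 38 with a mean of at least 100 to 60 with totals made equal. The 38 are out of the 43 members that this filter keeps, and the 51 and the 60 out of 64. The count of falls moved from 1 to 0 when upper quartiles or totals were made equal and to 3 on ribosomal protein centring. The median of 2.59 became 3.13, 3.44 and 1.57 under these 3 scalings. At 11 hpf the result depended more on the processing: 15 called, 14 of them higher, became 9 and 8 at an adjusted p below 0.01, 27 and 26 with upper quartiles made equal, 39 and 39 with totals made equal, and 9 and 7 on ribosomal protein centring, while the share of all rows called higher went from 12% to 19.2%, 30.5% and 8.24% under these 3 scalings. Falls numbered 0 with totals made equal and 2 on ribosomal protein centring, and the median of 0.80 became 1.24 with upper quartiles made equal, 1.78 with totals made equal and 0.47 on ribosomal protein centring. The 21 members with a difference between times became 13, 11 of them higher and 2 lower, on ribosomal protein centring. The box C/D median at 11 hpf turned to -0.14 and POLR2A at 19 hpf to -0.96 on that scale.

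The scalings of single groups and of the other ribosome biogenesis list were chosen after seeing the data. For that list, 57 of 57 calls were higher at 11 hpf with totals made equal, with 0 lower, 37 were higher and 1 lower with upper quartiles made equal, and on ribosomal protein centring 4 were lower at 11 hpf and 3 at 19 hpf. Of all rows at 11 hpf, 30.5% were called higher and 16.6% lower with totals made equal, and 19.2% and 20.5% with upper quartiles made equal. On ribosomal protein centring 29% of all rows were called lower at 11 hpf and 42.9% at 19 hpf. The causes were not tested beyond the shifts themselves, which move every gene alike. No paired analysis was possible because the columns carry no libraries, and leaving out a replicate and a DESeq2 refit were not run for the same reason. POLR1D, under the floor in controls, had the largest error of the members at both times.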
